A study of Mus musculus with 23 samples.

Results

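Aminoacyl-tRNA synthetases were followed in TM4 cells, an immortalized mouse Sertoli cell line, after treatment with plasticizers. Their genes were taken by name: 19 encode synthetases of the cytosol and 16 encode their mitochondrial counterparts, which makes 35 of the 20145 named genes on the array. The cells were treated for 48 hours at 100 µM with the phthalate monoester MEHP, formed in the body from the plasticizer DEHP, with DINCH, a commercial replacement, with dioctyl maleate (DOM), dioctyl succinate (DOS) or 1,4-butanediol dibenzoate (BDB). All groups, the control group included, received 1% DMSO, and the control group received DMSO alone. Each group had 4 arrays except DOS, which had 3, so that 23 single-colour arrays on 3 slides were compared. TM4 is one line grown without the germ cells and hormones of the testis, and the labels do not say whether replicates came from separate cultures. The methods call the replicates biological and do not say how the cultures were separated, so p-values measure the spread between these samples.

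An aminoacyl-tRNA synthetase joins one amino acid to its matching tRNA, the step that gives the ribosome its building blocks. The cytosol and the mitochondrion mostly use separate enzymes from separate nuclear genes, while lysyl-tRNA synthetase (Kars1) and glycyl-tRNA synthetase (Gars1) serve both compartments from one gene. Several cytosolic enzymes are held together with the scaffold proteins Aimp1, Aimp2 and Eef1e1 in the multisynthetase complex. Many cytosolic synthetase genes are known targets of ATF4, the transcription factor that is translated when amino acids are scarce or proteins misfold. Sertoli cells make and secrete large amounts of protein to nourish germ cells.

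Of the markers fixed for Sertoli cells, 6 of 15 were above background on all 23 arrays, among them Gata4, Dmrt1 and Dhh. Wt1, Sox8, Fshr and Cldn11 were above background on no array, so the Sertoli label rests on part of the list. The germ cell genes Ddx4 and Dazl and the leukocyte gene Ptprc were likewise above background on no array, while all 4 fibroblast markers (Col1a1, Col1a2, Pdgfra and Dcn) were above background on every array. The other lists were mixed. The macrophage marker Csf1r, the Leydig marker Cyp17a1 and the peritubular myoid markers Acta2 and Cnn1 were above background on every array. Adgre1, Cyp11a1, Hsd3b1, Lhcgr and Myh11 of the same lists were above it on none. The 75th percentile of spot intensity ranged from 205 to 351 over arrays, 43.4% to 52.2% of probes were well above background, and arrays correlated with each other at 0.971 to 0.997. All 19 cytosolic and 15 of the 16 mitochondrial synthetases were above background on all arrays. Nars2, the mitochondrial asparaginyl enzyme, was above background on only 1 array and was not tested, which left 34 members in every comparison. Values are given as log2 intensity relative to the 75th percentile of the same array, so a difference of 1 is a doubling. They can be compared between samples for one gene but not between genes.

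**Figure D1:**
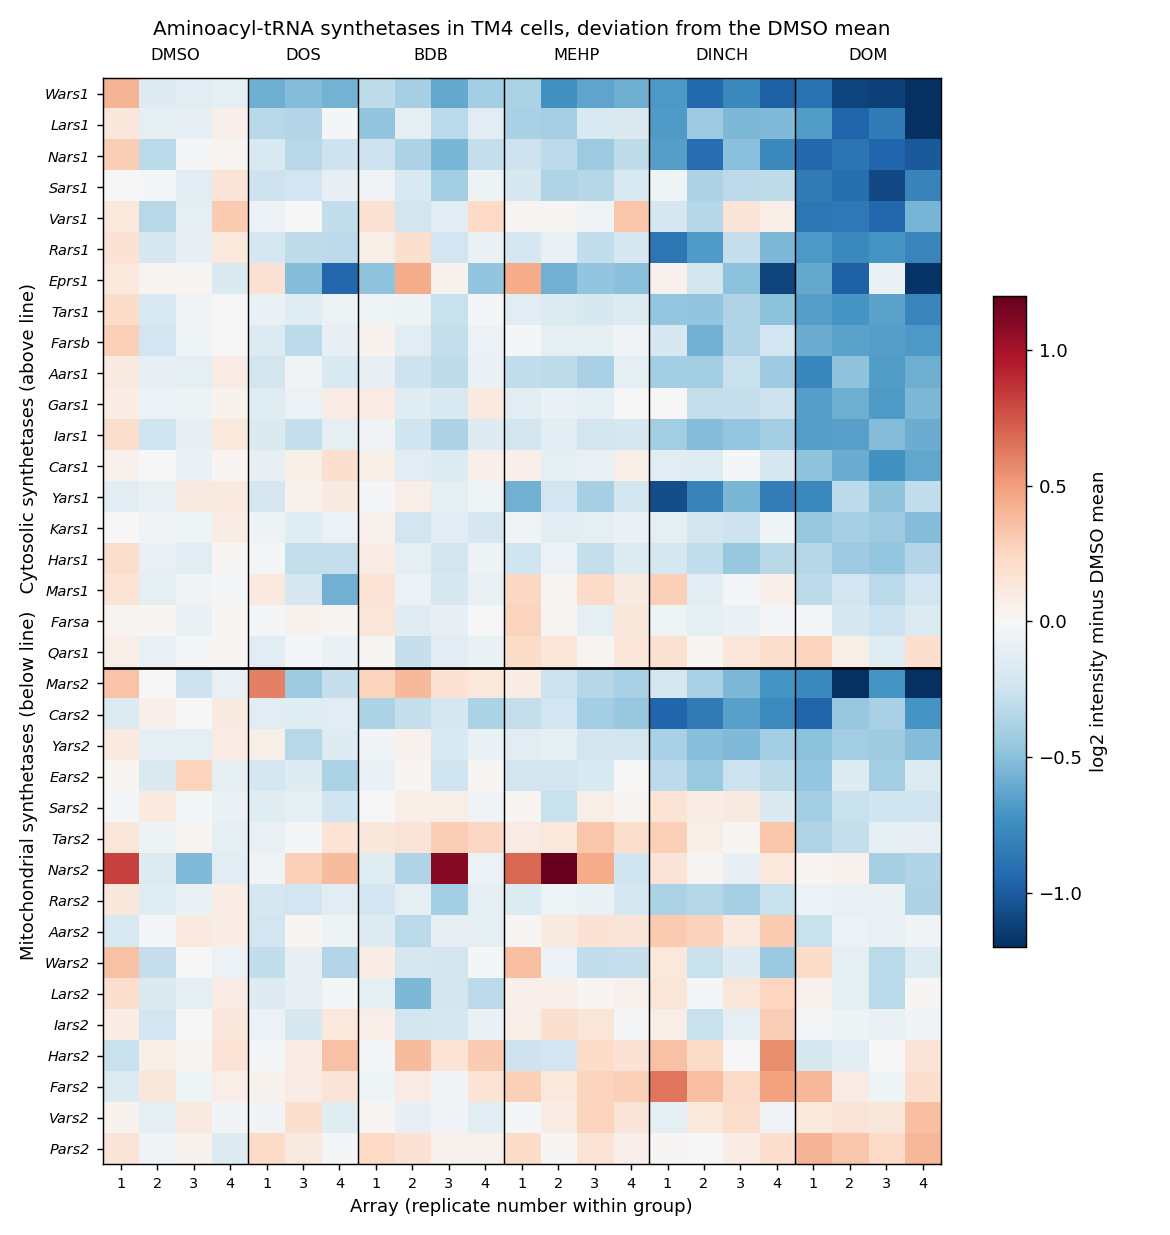
Heat map of the 35 synthetase genes (rows, cytosolic above the line, mitochondrial below) on the 23 arrays (columns, replicate number within group). Colour gives log2 intensity of the brightest probe minus the DMSO mean, clipped at 1.2. Most cytosolic rows are blue on the DOM arrays, with Eprs1 on replicate 3 near its control level, and paler in DINCH, while most mitochondrial rows stay pale. Nars2 varied from array to array near background.

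DOM lowered most cytosolic synthetases. After treatment with DOM, 13 of 19 cytosolic members were lower than in DMSO (adjusted p under 0.05 and a change over 1.5-fold, by limma's moderated test on all probes) and none was higher. Across all 12005 named genes tested, 20.5% changed and 10.6% were lower by the same rule. Only 2 of 15 tested mitochondrial members, Mars2 and Cars2, were lower. The median log2 change was -0.63 over the cytosolic members, -0.12 over the mitochondrial members and -0.03 over all named genes. A further 3 cytosolic members (Yars1, Kars1 and Hars1) passed the adjusted p with a change under 1.5-fold. At any fold 16 of 19 cytosolic members passed it, where 38.7% of all named genes did. The array measures each gene relative to the others, and less transcript per cell cannot be told apart from fewer cells that make it.

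Wars1, the tryptophanyl-tRNA synthetase, fell the most of the members. Its level was 6.00, 5.43, 5.45 and 5.47 in DMSO and 4.69, 4.48, 4.46 and 4.14 in DOM. Every DOM array lay below every DMSO array, although DMSO replicate 1 stood above the other controls. Groups without overlap, here and below, are a description only, since the share of all named genes that show it is not given. The difference was -1.14 on the log2 scale (SE 0.16, 95% interval -1.51 to -0.77, adjusted p = 0.00125), a 2.21-fold reduction. A second Wars1 probe gave -1.17 (adjusted p = 0.00249).

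Lars1, Nars1 and Sars1, which charge leucine, asparagine and serine, each fell by more than 0.9 on this scale. Lars1 measured 6.26, 6.02, 6.02 and 6.19 in DMSO and 5.45, 5.16, 5.29 and 4.82 in DOM. The groups did not overlap, and the difference was -0.94 (95% interval -1.26 to -0.62, adjusted p = 0.00155). Nars1 measured 5.43, 4.81, 5.12 and 5.17 in DMSO, and its DOM arrays lay close together at 4.19, 4.25, 4.18 and 4.12 (difference -0.94, 95% interval -1.24 to -0.65, adjusted p = 0.00107). The spread of Nars1 was thus larger among controls than among treated samples. Sars1 measured 6.91, 6.89, 6.79 and 7.07 in DMSO against 6.07, 6.01, 5.83 and 6.11 in DOM (difference -0.91, 95% interval -1.14 to -0.68, adjusted p = 0.000503).

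Vars1 and Rars1, for valine and arginine, followed. Vars1 was at 3.68, 3.23, 3.46 and 3.87 in DMSO and at 2.69, 2.70, 2.62 and 3.01 in DOM, a difference of -0.81 (adjusted p = 0.00439). Rars1, a part of the multisynthetase complex, was at 2.28, 1.92, 2.01 and 2.24 in DMSO and at 1.43, 1.34, 1.41 and 1.32 in DOM, a difference of -0.74 (adjusted p = 0.00132). Neither pair of groups overlapped. Wars1, Lars1, Nars1, Sars1, Vars1 and Rars1 stayed past both thresholds under all 21 alternative settings tried for DOM.

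Tars1, Farsb, Aars1, Gars1, Iars1 and Cars1 changed by -0.61 to -0.70, close to the fold threshold. Tars1, the threonyl enzyme, was at 6.58, 6.18, 6.31 and 6.37 in DMSO and at 5.70, 5.66, 5.72 and 5.57 in DOM (difference -0.70, adjusted p = 0.0016). Farsb, the beta subunit of the phenylalanyl enzyme, was at 4.24, 3.72, 3.91 and 3.96 in DMSO and at 3.36, 3.32, 3.29 and 3.27 in DOM (difference -0.64, adjusted p = 0.00369). Its partner Farsa, the alpha subunit, changed by only -0.16 (95% interval -0.36 to 0.04, adjusted p = 0.211), so the transcripts of the 2 subunits gave different calls, and the difference between them was not tested. Aars1, the alanyl enzyme, was at 7.14, 6.94, 6.93 and 7.14 in DMSO and at 6.26, 6.56, 6.37 and 6.45 in DOM (difference -0.63, adjusted p = 0.00244). Gars1 was at 8.88, 8.72, 8.74 and 8.84 in DMSO and at 8.13, 8.21, 8.12 and 8.26 in DOM (difference -0.62, adjusted p = 0.00123). In each of these the DOM arrays lay below all controls. Cars1, the cysteinyl enzyme, was at 6.19, 6.13, 6.05 and 6.16 in DMSO and at 5.65, 5.54, 5.41 and 5.51 in DOM (difference -0.61, adjusted p = 0.00154). Iars1, the isoleucyl enzyme, changed by -0.61 (adjusted p = 0.00483). Because these changes lay near 1.5-fold, single arrays moved some of them under it. Without DMSO replicate 1, Farsb changed by -0.55 and Iars1 by -0.54. Iars1 changed by -0.56 without DMSO replicate 4, Aars1 by -0.58 without DOM replicate 1, and Cars1 by -0.57 without DOM replicate 3, all with adjusted p-values of 0.0143 or less. Quantile normalization in place of the 75th percentile left 8 of the 13 cytosolic calls. Of these, Aars1 stayed only through a second, dim probe, which is not counted as support. That probe was above background on all 4 DMSO arrays but on only 1 DOM array.

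Eprs1, which charges both glutamate and proline from one chain, had the widest spread. It measured 3.26, 3.16, 3.14 and 2.95 in DMSO and 2.51, 2.15, 3.04 and 1.95 in DOM, where replicate 3 reached into the control range. Its difference of -0.71 (SE 0.21, adjusted p = 0.0326) no longer passed once any of 6 arrays was left out: the adjusted p was 0.0507 without DOM replicate 1, 0.0925 without DOM replicate 2 and 0.0766 without DOM replicate 4. It was 0.0776, 0.0713 and 0.071 without DMSO replicates 1, 2 and 3. It was lost in 10 of the 21 alternatives, more than any other of the 13.

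The remaining cytosolic members moved less. Kars1, the lysyl enzyme shared with mitochondria, was at 6.06, 6.01, 6.00 and 6.14 in DMSO and at 5.59, 5.65, 5.62 and 5.53 in DOM. Its groups did not overlap, but the difference of -0.45 (adjusted p = 0.0042) was under 1.5-fold. Yars1 changed by -0.46 (adjusted p = 0.0242) and Hars1 by -0.40 (adjusted p = 0.0173). Mars1, which charges the initiator methionine, changed by -0.27 (95% interval -0.48 to -0.07, adjusted p = 0.0502). Qars1, the glutaminyl enzyme, was the one cytosolic member above its DMSO mean, by 0.10 (95% interval -0.15 to 0.35, adjusted p = 0.513).

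**Figure D2:**
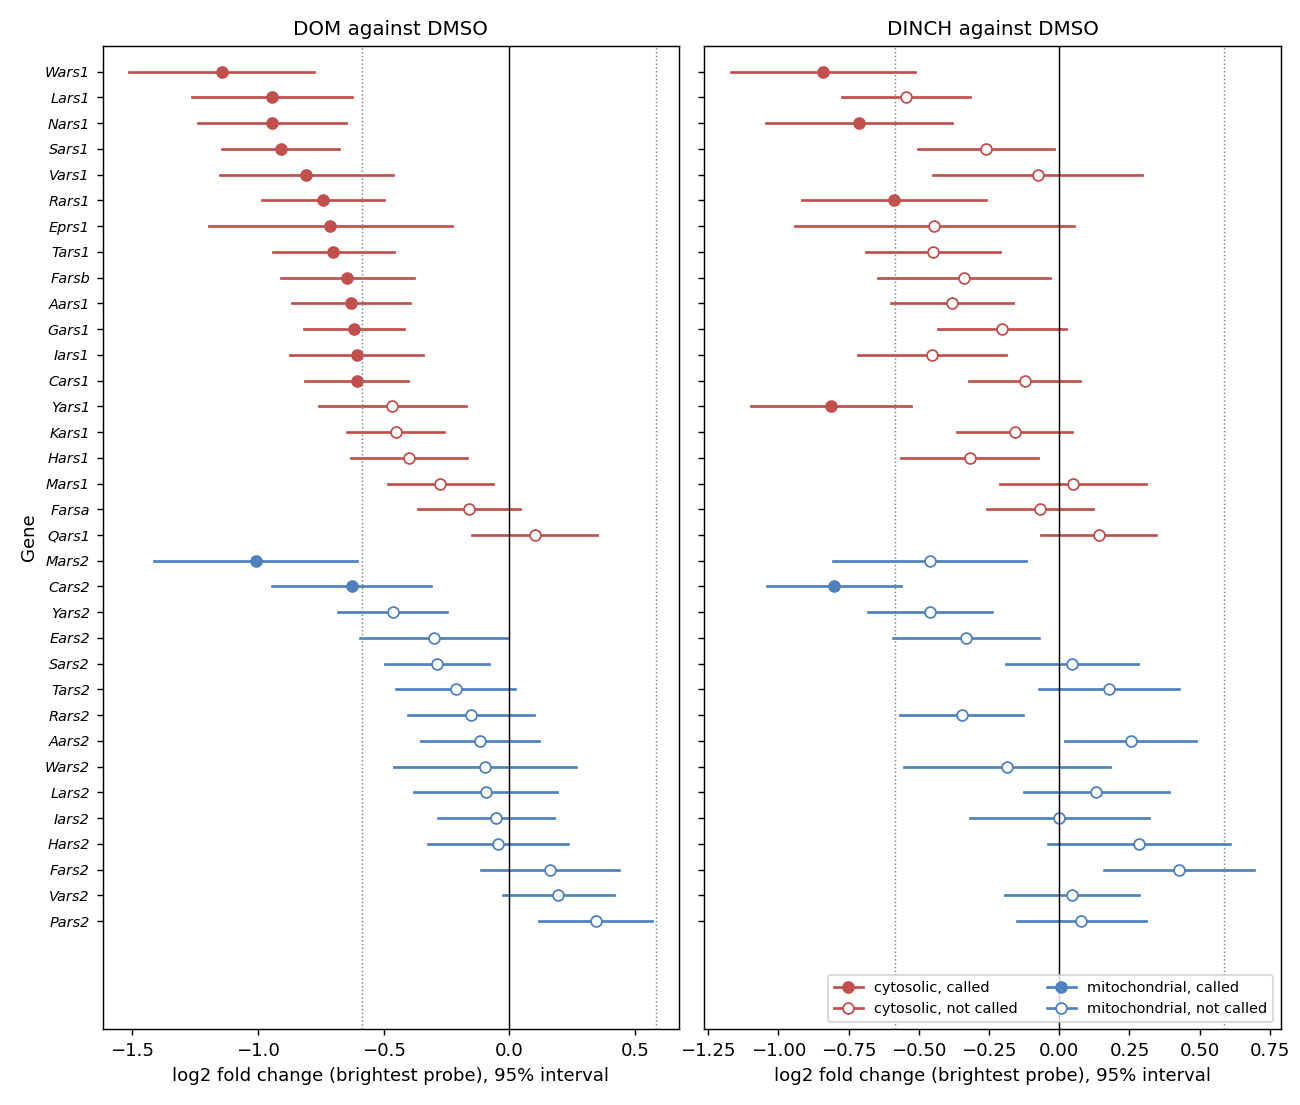
log2 fold change of the brightest probe of each tested member with its 95% interval, DOM against DMSO on the left and DINCH against DMSO on the right. Filled points passed the adjusted p and the 1.5-fold threshold (dotted lines). Under DOM the 13 filled cytosolic points lie between -1.14 and -0.61; under DINCH 4 cytosolic points are filled, and Aars1, called there through its second probe, is drawn open.

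Among mitochondrial members Mars2 and Cars2 were called lower after treatment with DOM. Mars2, the mitochondrial methionyl enzyme, measured -2.09, -2.43, -2.68 and -2.52 in DMSO and -3.20, -3.65, -3.15 and -3.76 in DOM, with no overlap (difference -1.01, 95% interval -1.41 to -0.61, adjusted p = 0.00324). It is a dim probe, and normexp background correction gave -0.44, under the fold threshold. Cars2, the mitochondrial cysteinyl enzyme, measured 1.21, 1.44, 1.37 and 1.48 in DMSO and 0.42, 0.92, 0.99 and 0.67 in DOM (difference -0.63, adjusted p = 0.00922). Without DOM replicate 1, the lowest array, it changed by -0.52 and was not called, and its second probe changed by -0.52. Yars2 and Sars2 passed the adjusted p at -0.46 and -0.29, under 1.5-fold. Pars2, the prolyl enzyme of mitochondria, went the other way at 0.34 (adjusted p = 0.0285), also under 1.5-fold. With quantile normalization it passed both thresholds as higher. The other 10 mitochondrial members tested lay between -0.30 and 0.20 and did not pass.

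The pattern held on each array. Taking the median deviation from the DMSO mean over the members of a class, the 4 DOM arrays gave -0.66, -0.64, -0.66 and -0.59 for the cytosolic class and -0.19, -0.12, -0.12 and -0.09 for the mitochondrial class. The DMSO arrays spread from -0.10 to 0.13 in the cytosolic class and from -0.06 to 0.09 in the mitochondrial class. The cytosolic minus mitochondrial difference was -0.51 ± 0.03 (SD, n = 4) in DOM and -0.03 ± 0.05 (SD, n = 4) in DMSO, given here as a description. Within slides 1, 2 and 3 the median cytosolic change of DOM against DMSO was -0.87, -0.53 and -0.69. DOM, DOS and DMSO shared rows 2 and 4 of the slides.

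**Figure D3:**
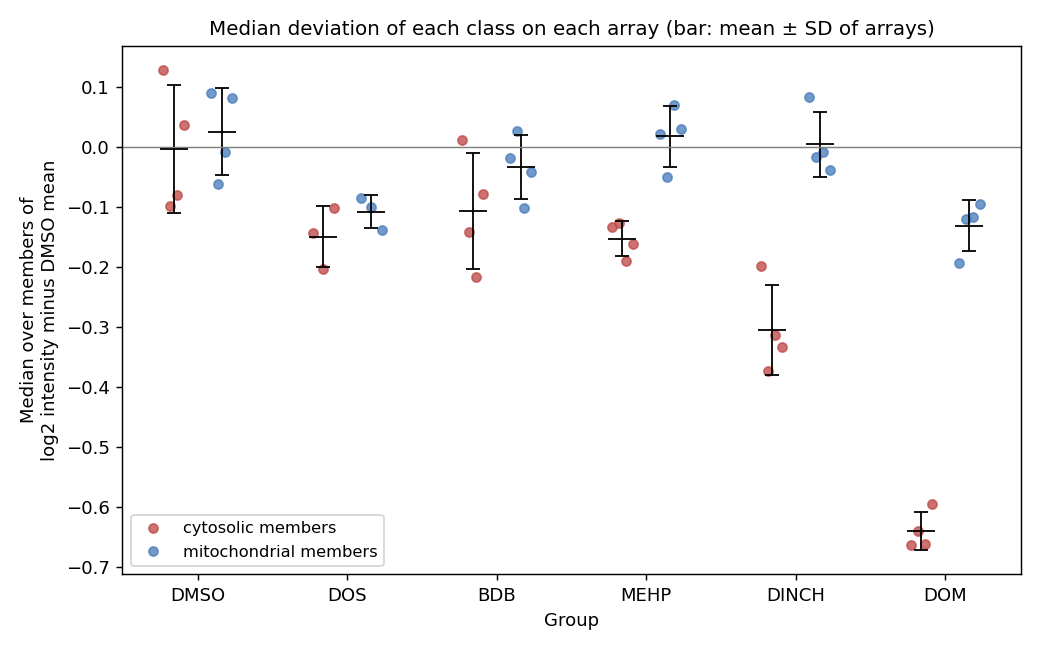
Median over the detected cytosolic (red) and mitochondrial (blue) members of log2 intensity minus the DMSO mean, one point per array, with the mean and SD of each group. The DOM arrays lie between -0.66 and -0.59 for the cytosolic class, apart from every other array, and the DINCH arrays lie between -0.37 and -0.20.

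Since the cytosolic members moved together, their promoters were searched. RefSeq promoter windows (build GRCm38.p6, 250 bases before to 50 after the start) were at hand for 12 cytosolic and 14 mitochondrial members. None was at hand for Wars1, Lars1, Nars1, Vars1, Rars1, Cars1, Hars1, Hars2 and Pars2. Of the members that stayed past both thresholds under all settings for DOM, only Sars1 could be searched. The C/EBP-ATF response element, to which ATF4 binds with a C/EBP partner, was searched as TGATGNAA on both strands (TTNCATCA on the reverse), and the E-box bound by MYC as CACGTG, which reads the same on both strands. TGATGNAA was found in 5 of 12 cytosolic windows (Aars1, Gars1, Iars1, Tars1 and Yars1), in 0 of 15 mitochondrial windows (Aars2 has 2) and in 3.97% of all 32851 windows. CACGTG was found in 4 of 12 cytosolic windows (Aars1, Farsb, Iars1 and Tars1), in the mitochondrial window of Ears2 and in 7.15% of all windows. The Sars1 window held neither, so these shares do not describe the members that DOM lowered most. Below are the stretches that end at the base before the start for the 5 members lowered by DOM with a match in that stretch, with the matches in capitals.
Aars1, chr8:111033682-111033841, plus strand: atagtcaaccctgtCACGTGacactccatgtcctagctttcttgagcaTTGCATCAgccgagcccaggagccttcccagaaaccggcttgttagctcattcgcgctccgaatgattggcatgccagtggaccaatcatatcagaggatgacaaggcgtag
Tars1, chr15:11399659-11399758, minus strand: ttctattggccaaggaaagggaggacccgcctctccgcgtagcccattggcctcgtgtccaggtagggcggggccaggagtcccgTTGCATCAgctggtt
Gars1, chr6:55037901-55038000, plus strand: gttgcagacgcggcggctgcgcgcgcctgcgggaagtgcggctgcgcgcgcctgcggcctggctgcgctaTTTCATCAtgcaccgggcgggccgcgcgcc
Iars1, chr13:49682030-49682129, plus strand: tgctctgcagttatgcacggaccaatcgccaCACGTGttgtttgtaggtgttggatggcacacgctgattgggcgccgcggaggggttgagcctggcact
Farsb, chr1:78488898-78488997, minus strand: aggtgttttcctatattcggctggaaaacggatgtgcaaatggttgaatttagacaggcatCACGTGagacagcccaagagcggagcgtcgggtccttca
In Aars1 the E-box began 146 bases and the reverse response element 112 bases before the start. In Tars1 and Gars1 the reverse response element began 15 and 30 bases before the start, and in Iars1 and Farsb the E-box began 69 and 39 bases before it. The response elements of Yars1 and Iars1, a further response element of Aars1 and the E-boxes of Tars1 and Ears2 lay after the start and are not printed. A match is a description of the letters only.

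DINCH also lowered some cytosolic synthetases. Through their brightest probes 4 of 19 cytosolic members (Wars1, Yars1, Nars1 and Rars1) and 1 of 15 mitochondrial members (Cars2) were called, all lower. Over all probes the cytosolic count was 5, where 8.26% of all named genes changed and 4.02% were lower. The added call, Aars1, came from a dim probe that entered the test only through the higher group, and is not counted as support. The median log2 change was -0.34 over the cytosolic members, 0.05 over the mitochondrial members and -0.00065 over all named genes. Over all probes, 8 cytosolic members passed the adjusted p at any fold, where 14.9% of all named genes did.

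Wars1 measured 4.90, 4.65, 4.82 and 4.61 in DINCH, all below the DMSO arrays (difference -0.84, 95% interval -1.17 to -0.51, adjusted p = 0.0102), while its second probe gave -0.71 (adjusted p = 0.0766). Yars1, the tyrosyl enzyme, measured -1.240, -1.194, -0.997 and -0.981 in DMSO and -2.17, -1.91, -1.65 and -1.93 in DINCH, with no overlap (difference -0.81, adjusted p = 0.00756). For Yars1 the change from DMSO was -0.81 in DINCH and -0.46 in DOM, and that difference was not tested. Its probe is dim, and normexp background correction gave -0.45 in DINCH, under 1.5-fold and not called. Nars1 measured 4.46, 4.22, 4.63 and 4.35 in DINCH (difference -0.71, adjusted p = 0.019). It did not pass without DINCH replicate 4 (adjusted p = 0.051) or DMSO replicate 3 (adjusted p = 0.057). Rars1 measured 1.25, 1.44, 1.84 and 1.58 in DINCH, a change of -0.59 (adjusted p = 0.0347) just over 1.5-fold. It lost its call without any one of 6 arrays (DINCH replicates 1, 2 and 4 and DMSO replicates 1, 3 and 4), with adjusted p-values of 0.0682 to 0.0846. The count of 5 cytosolic members fell to 2 without DINCH replicate 4 or DMSO replicate 3, and to 3 without DMSO replicate 1 or DMSO replicate 4.

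The Aars1 call in DINCH rested on a second, dim probe. That probe was above background on all 4 DMSO arrays and on no DINCH array, so it was tested only through the controls. The bound of at least 1.74-fold lower (adjusted p = 0.0234 by limma) holds for that probe and not for the gene. Its call was lost on leaving out DINCH replicate 4 (adjusted p = 0.0592) or DMSO replicate 1, 2, 3 or 4 (adjusted p = 0.0533, 0.05, 0.071 and 0.0562). The bright Aars1 probe measured 6.63, 6.62, 6.77 and 6.60 in DINCH, below every DMSO array, but changed by only -0.38 (adjusted p = 0.0378). Lars1, Tars1 and Iars1 also passed the adjusted p under 1.5-fold, at -0.55, -0.45 and -0.45. Lars1 measured 5.44, 5.69, 5.58 and 5.60 in DINCH, and every array lay below the controls.

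Sars1, Vars1, Gars1 and Cars1, all lowered by DOM, were not called in DINCH. Sars1 changed by -0.26 (95% interval -0.50 to -0.02), Gars1 by -0.20 (95% interval -0.43 to 0.02), Cars1 by -0.12 (95% interval -0.32 to 0.07) and Vars1 by -0.08 (95% interval -0.45 to 0.30). Of the mitochondrial members, Cars2 measured 0.42, 0.54, 0.73 and 0.61 in DINCH, under every control (difference -0.80, 95% interval -1.04 to -0.56, adjusted p = 0.00456), and its second probe was called too at -0.60 (adjusted p = 0.0083). Yars2 passed the adjusted p at -0.46 (adjusted p = 0.0216) under 1.5-fold. Mars2 changed by -0.46 (adjusted p = 0.0885). Fars2 went the other way at 0.43, with every DINCH array above the controls, and did not pass (adjusted p = 0.0503 by limma). Hars2 (0.28) and Aars2 (0.25) were also higher and did not pass. Of the 15 mitochondrial members tested, 7 lay below 0.

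Class medians on the DINCH arrays were -0.20, -0.37, -0.31 and -0.33 for the cytosolic and 0.08, -0.02, -0.01 and -0.04 for the mitochondrial members. Within slides 1, 2 and 3 the cytosolic median change was -0.41, -0.30 and -0.44. DINCH, MEHP and BDB arrays lay in slide rows 1 and 3 and DMSO arrays in rows 2 and 4, so row and treatment cannot be told apart in these comparisons. BDB, in those same rows, had no member called, but 0% of all named genes were called there. It therefore cannot separate row from treatment, and the part of the row was not tested.

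**Figure D4:**
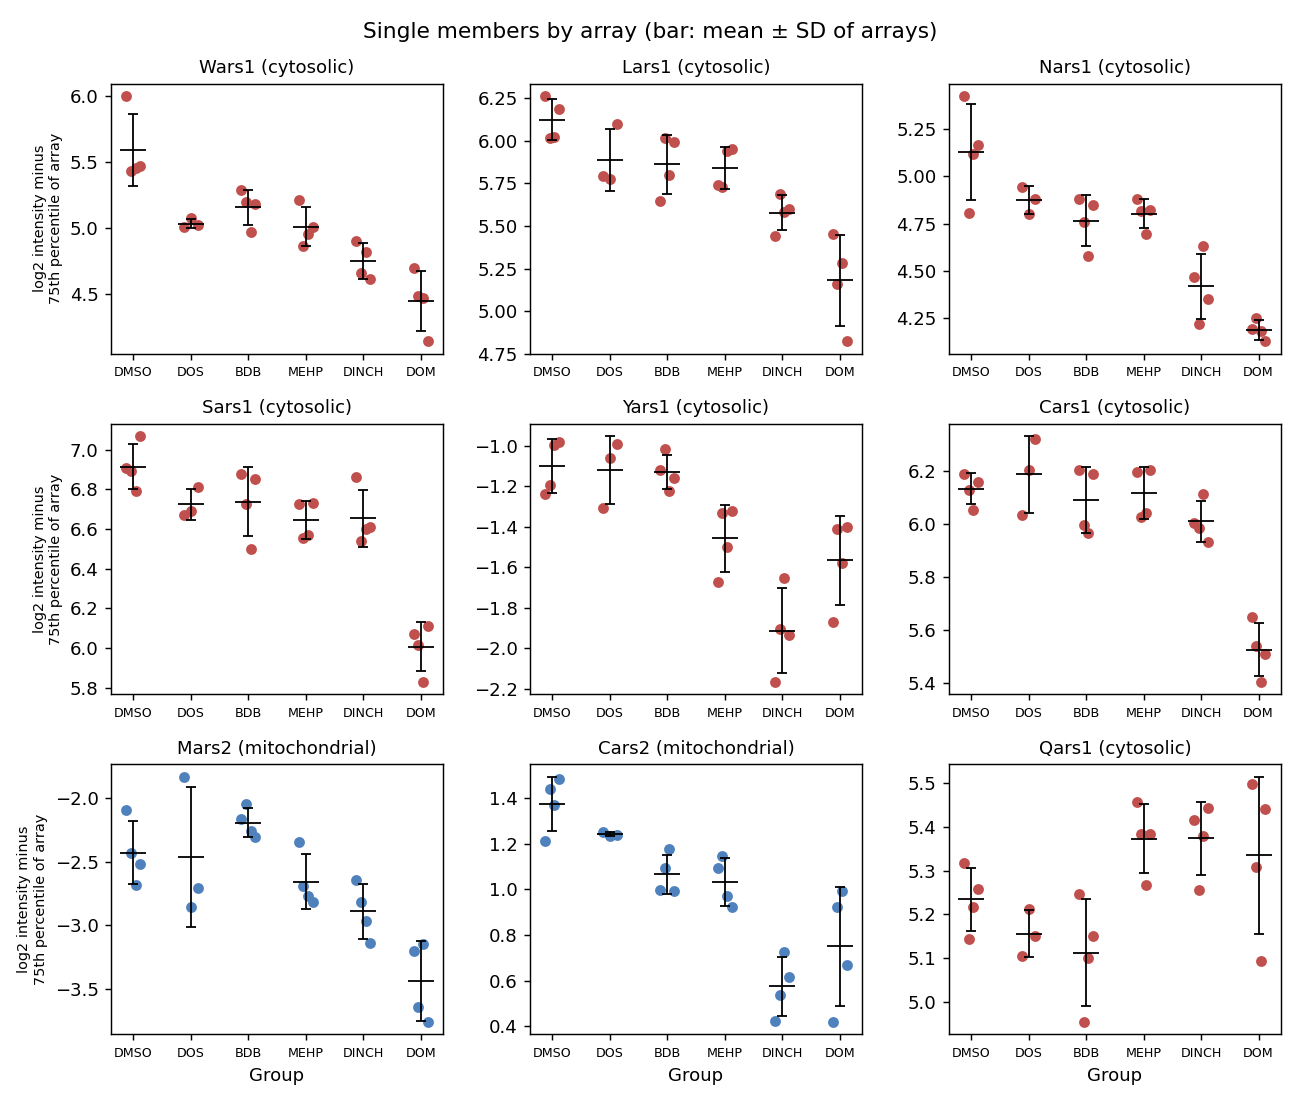
log2 intensity relative to the 75th percentile of the array for 9 members, one point per array, with mean and SD per group. Wars1, Lars1 and Nars1 are lowest in DOM and next lowest in DINCH; Sars1 and Cars1 are lowest in DOM, with no array in the range of another group; Yars1 and Cars2 are lowest in DINCH; Qars1 in DOM spans 5.09 to 5.50, across the DMSO range.

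No synthetase was called in MEHP through its brightest probe. The 1 cytosolic call of 19 over all probes, Aars1, came from the same dim probe and is not counted as support, where 1.68% of all named genes changed and 0.552% were lower. No mitochondrial member of 15 was called by limma. At an unadjusted p under 0.05, 6 cytosolic and 4 mitochondrial members passed, beside 2581 of 11948 named genes. The 6 cytosolic members were lower. Of the mitochondrial ones Cars2 was lower, while Fars2 (0.24) and the second probes of Pars2 (0.25) and Wars2 (0.29) were higher. The brightest Wars2 probe changed by -0.07. The dim Aars1 probe was above background on all 4 DMSO arrays and on no MEHP array, so it was tested only through the controls. The bound of at least 1.90-fold lower (adjusted p = 0.0194 by limma) holds for that probe and not for the gene. The call did not pass without MEHP replicate 1, DMSO replicate 3 or DMSO replicate 4 (adjusted p = 0.0636, 0.0731 and 0.0525), and the bright Aars1 probe gave none. The bright probe of Aars1 measured 6.74, 6.73, 6.65 and 6.92 in MEHP. Wars1 measured 5.206, 4.857, 4.952 and 5.003, below every DMSO array, with a change of -0.58 (95% interval -0.91 to -0.26) that did not pass (adjusted p = 0.0812). Yars1 (-0.35), Cars2 (-0.34), Lars1 (-0.28), Aars1 by its bright probe (-0.28) and Sars1 (-0.27) also did not overlap with DMSO and did not pass. The median change was -0.19 over cytosolic, -0.02 over mitochondrial and -0.01 over all named genes. Without DMSO replicate 1 the cytosolic median was -0.12.

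BDB and DOS gave no call among the synthetases. In both comparisons 0 of 19 cytosolic and 0 of 15 mitochondrial members passed limma's test, and the share of all named genes called was 0%. At an unadjusted p under 0.05, 3 cytosolic and 3 mitochondrial members passed in BDB, and 3 cytosolic and 1 mitochondrial member in DOS. Of all named genes tested, 2277 of 11969 passed it in BDB and 923 of 11936 in DOS. Wars1 had the lowest change of the members in both, -0.43 in BDB (95% interval -0.75 to -0.11, adjusted p = 0.205) and -0.56 in DOS (95% interval -0.91 to -0.21, adjusted p = 0.484). Its arrays measured 5.28, 5.19, 4.97 and 5.18 in BDB and 5.0003, 5.0697 and 5.0167 in DOS, all under the lowest control of 5.43. The cytosolic median change was -0.11 in BDB and -0.19 in DOS, with 18 and 17 of 19 members below 0, beside -0.03 and -0.01 over all named genes. These medians leaned on single arrays: that of BDB was -0.05, with 13 of 19 below 0, without BDB replicate 3 and -0.07 without DMSO replicate 1, and that of DOS was -0.11 without DMSO replicate 1. These comparisons share the 4 DMSO arrays, so a high or low control moves all of them together.

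DOM and DOS were compared directly, since they are dioctyl diesters that differ by the double bond of the diacid and were given at the same dose and time. This was the 1 pair of compounds compared. With DOM, 7 of 19 cytosolic members (Sars1, Lars1, Nars1, Vars1, Cars1, Tars1 and Wars1) and 1 of 15 mitochondrial members (Mars2) were lower than with DOS, and none was higher. Of all named genes 15.2% differed and 8.06% were lower. The median difference was -0.46 over the cytosolic members, -0.03 over the mitochondrial members and -0.01 over all named genes. At any fold 13 cytosolic members passed the adjusted p, where 24.4% of all named genes did.

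Sars1 measured 6.67, 6.69 and 6.81 in DOS, all above the DOM arrays (difference -0.72, 95% interval -0.97 to -0.46, adjusted p = 0.00507). Nars1 measured 4.94, 4.80 and 4.88 in DOS (difference -0.69, adjusted p = 0.00374) and Cars1 6.03, 6.20 and 6.32 (difference -0.66, adjusted p = 0.00782). For these members the DOM arrays lay clear of the DOS arrays. Vars1 measured 3.49, 3.56 and 3.26 in DOS (difference -0.68, adjusted p = 0.0113). Tars1 differed by -0.60 (adjusted p = 0.00618), and by -0.57 without DOM replicate 4 and -0.58 without DOS replicate 4, which is under 1.5-fold. Lars1 differed by -0.71 (adjusted p = 0.0222) and lost its call in the fit with the replicate number as a block (-0.70, adjusted p = 0.056), without DOM replicate 2 (adjusted p = 0.0628) and without DOS replicates 1 or 4 (adjusted p = 0.0588 and 0.0857).

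Wars1, although lowest of all against DMSO, differed between DOM and DOS by only -0.59 (adjusted p = 0.0228), just over 1.5-fold. Leaving out DOM replicate 2 or any DOS array raised its adjusted p to between 0.0611 and 0.0721, and without DOM replicate 4 the difference was -0.48; its second probe gave -0.69 (adjusted p = 0.0119). Mars2 measured -1.83, -2.85 and -2.70 in DOS, where replicate 1 stood far above the others (difference -0.98, adjusted p = 0.0357). It did not pass without DOS replicate 1 (-0.66, adjusted p = 0.0895), DOS replicate 4 (adjusted p = 0.0682), DOM replicate 2 (adjusted p = 0.0937) or DOM replicate 4 (adjusted p = 0.0834). Members with no call between the 2 diesters included Qars1 (0.18, 95% interval -0.10 to 0.46), Mars1 (-0.05, 95% interval -0.42 to 0.31) and Farsa (-0.18, 95% interval -0.41 to 0.06). The intervals of Eprs1 (-1.003 to 0.43) and Cars2 (-0.84 to -0.15) include differences over 1.5-fold.

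Of 18 other genes of tRNA charging, 2 were called after treatment with DOM, where 10.6% of all named genes were lower. Both were lower: Tars3, a second cytosolic threonyl enzyme (-0.87, adjusted p = 0.000651), and Aimp2, a scaffold of the multisynthetase complex (-0.67, adjusted p = 0.00132). Their median change was -0.24. The same 2 genes were lower in DOM than in DOS. In DINCH, Pstk, the kinase that acts on the selenocysteine tRNA, was the 1 gene called (0.59, adjusted p = 0.0276). Of 19 tested genes for cytosolic initiation, elongation and release, 3 were lower in DOM (Etf1, Eif2s2 and Eif2s3x) with a list median of -0.32. Of 20 genes of mitochondrial translation, 3 were lower in DOM (Mrrf, Mrpl12 and Mrpl3) with a median of -0.22. Both counts stand beside the same 10.6% of all named genes.

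Genes linked to ATF4, which serve amino acid synthesis, uptake and the stress response, were lower together with the synthetases. In DOM 15 of 20 were called, all lower, with a median of -0.72, where 20.5% of all named genes changed and 10.6% were lower. Shmt2 of serine and glycine metabolism changed by -1.80 (adjusted p = 7.73e-05), Psph by -1.39 and Psat1 by -1.30 of serine synthesis, and the transporter gene Slc7a5 by -1.30. Asns, which makes asparagine, changed by -0.67 (adjusted p = 0.00172), and a second Atf4 probe by -0.66 (adjusted p = 0.00323). The brightest Atf4 probe changed by -0.58 (adjusted p = 0.00283), under 1.5-fold. In DINCH 8 of 20 were called, all lower, led by the cystine transporter gene Slc7a11 (-1.60, adjusted p = 0.0147), with a median of -0.52, where 8.26% of all named genes changed and 4.02% were lower. Between DOM and DOS 12 of 20 were lower (median -0.63), where 8.06% of all named genes were. In MEHP, BDB and DOS against DMSO none was called, with 8, 5 and 2 of 20 at an unadjusted p under 0.05. Of all named genes tested, 2581 of 11948, 2277 of 11969 and 923 of 11936 passed that threshold. Both the list and the synthetases were measured on the same arrays, so their shift together is not independent evidence. The list was also chosen with earlier results of these data known. Of its genes the paper already gives Atf4, Shmt2 and Aldh18a1 as down-regulated in DOM. The counts are thus a description, and a part of ATF4 in the synthetase changes was not tested.

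**Figure D5:**
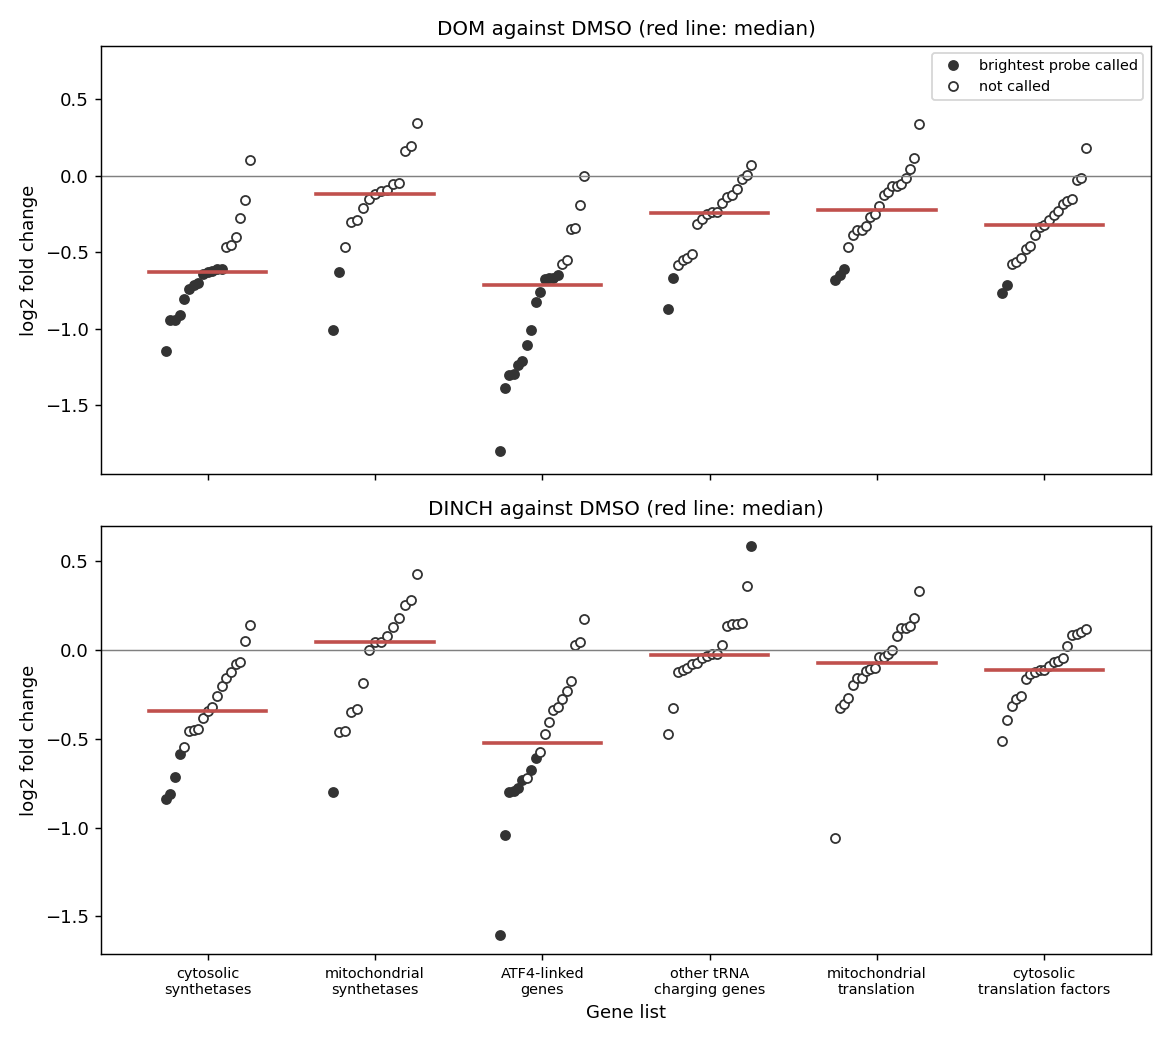
log2 fold change of the brightest probe of each gene in 6 lists, DOM against DMSO above and DINCH against DMSO below, with filled points for called probes and a red line at the list median. In DOM the medians are -0.63 for cytosolic synthetases and -0.72 for ATF4-linked genes, and between -0.12 and -0.32 for the other lists.

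Some markers of cell type were also called in DOM, where 20.5% of all named genes changed. Of 8 Sertoli markers tested Sox9 was lower (-0.92, adjusted p = 0.00253) and Inhbb higher (1.61, adjusted p = 0.00248). The median log2 change of the tested Sertoli markers was -0.09, with 4 of 8 below 0. The summed level of the 15 markers was 43.3 to 69.2 times the 75th percentile in DOM against 14.5 to 28.4 in DMSO. Such sums add intensities before log2, so the brightest markers weigh most and a sum does not speak for the whole list. Of 2 peritubular myoid markers tested Cnn1 was lower (-1.21, adjusted p = 0.000967), with a summed level of the list of 36.5 to 48.9 against 30.3 to 38.7. Of 4 fibroblast markers Pdgfra was higher (0.86, adjusted p = 0.00383), with summed levels of 556 to 743 against 477 to 655, which overlap. No germ cell marker was tested, and Ddx4, Dazl and Kit were above background on no array. In DINCH 1 of 8 Sertoli markers tested, Dhh, was higher (1.09, adjusted p = 0.00409), where 8.26% of all named genes changed. Their summed level was 14.3 to 19.8. In MEHP 1 of 4 fibroblast markers, Dcn, was lower (-1.12, adjusted p = 0.0403), where 1.68% of all named genes changed. Between DOM and DOS 4 of 9 Sertoli markers tested were called, with Clu (-0.92), Sox9 (-0.91) and Dhh (-0.59) lower and Inhbb higher (1.16), and Cnn1 was lower (-2.02, adjusted p = 0.000998). In that comparison 15.2% of all named genes differed. The part of these shifts in the synthetase results was not tested.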

How the data were processed

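RNA from TM4 cells was hybridized by the authors to single-colour Agilent mouse expression arrays and scanned, and the deposited files hold the spot intensity given by Feature Extraction 11.5.1.1, already background-subtracted. A deposited table of log2 values, per the labels shifted by the authors to each array's 75th percentile, served as an alternative. For the main analysis, intensities under 1 were set to 1, log2 was taken, the 75th percentile over non-control spots was subtracted, outlier spots were left out, and spots of one probe were averaged. Probes entered a test when all arrays of either group had them well above background with a value not under the 20th percentile. Probes were named by RefSeq accession (26582 of 55681), and a gene was called if any of its probes was; fold changes are those of its brightest probe unless stated. Each treatment was tested against DMSO on its own with limma 3.58.1 (R 4.3.3), with Benjamini-Hochberg adjustment over all tested probes, a threshold of 0.05 and 1.5-fold. The methods likewise filtered at the 20th percentile, tested each treatment on its own against DMSO and used 1.5-fold, but asked for detection in either condition without naming a number of arrays; detection on all arrays of a group was set here. They left out 1 DOS array for high background. In simulated data with 200 probes changed by 1 on the log2 scale, 72.5% were recovered for DOM against DMSO and 57.5% for DOM against DOS. Precision is limited by the number of arrays. The members, lists and motifs were chosen with earlier results of these data known. Values by array are given for the called members with the largest changes, 12 cytosolic and 6 mitochondrial at most, and for Kars1 and Gars1; others were added after their values were seen. Same-numbered DINCH, BDB and DOS arrays deviated together with their DMSO partners (correlations of 0.169 to 0.497) and DOM with DOS arrays (0.100 to 0.397), so the replicate block counts as a pairing there, from the data alone; for MEHP and DOM against DMSO 1 or more pairs did not reach 0.1. All arrays were scanned on one day. Alternatives were other normalization, background correction, filters, blocks, the authors' table and leaving out each array.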

Additional observations from a re-analysis of the deposited data

Results flagged for a closer look

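In 4 of 90 groups of 4 arrays examined over the named members, 1 array stood apart from the other 3 by Dixon's criterion, which chance gives in about 1 in 20 groups. Wars1 in DMSO replicate 1 was at 5.997, with the other controls at 5.43 to 5.47. Eprs1 in MEHP replicate 1 was at 3.575, with the others at 2.55 to 2.65. Gars1 in DINCH replicate 1 was at 8.798, with the others at 8.51 to 8.54. Tars1 in BDB replicate 3 was at 6.093, with the others at 6.30 to 6.34. The call of Wars1 in DOM held without DMSO replicate 1.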

How the results depend on the processing

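No called change and no cytosolic minus mitochondrial median changed direction under any alternative tried. Some mitochondrial medians near 0 did change sign. With normexp that of MEHP (-0.02) was 0.04 and that of DOM against DOS (-0.03) was 0.005. The count of cytosolic calls in DOM (13) was 8 with quantile normalization and 10 to 12 on leaving out single arrays, and that of mitochondrial calls (2) was 3 with quantile normalization (2 lower, and Pars2 higher), 0 with normexp, 1 without a filter on dim probes, 5 without a fold threshold, 1 with slide as a block and 1 to 2 on leaving out arrays. The 8 with quantile normalization and the 12 without DOM replicate 1 include Aars1 through its dim probe only, which is not counted as support. That probe also gave 1 of the 5 cytosolic calls in DINCH and the 1 call in MEHP, likewise not counted. In DINCH the 5 cytosolic calls were 4 with the brightest probe only, 3 with normexp, 0 without a filter, 2 with detection on 1 array, 8 without a fold threshold and 2 to 5 on leaving out arrays, and the 1 mitochondrial call was 0 without a filter and 2 without a fold threshold. The 1 MEHP call was 0 with normexp, without a filter, with detection on 1 array, with the brightest probe only and with all 6 groups in 1 fit, and 0 to 1 on leaving out arrays. Between DOM and DOS the 7 cytosolic calls were 4 with quantile normalization, 3 with normexp, 0 without a filter and 13 without a fold threshold. The 1 mitochondrial call there was 0 with normexp, without a filter and with detection on 1 array, 2 without a fold threshold, 2 with slide as a block and 0 to 1 on leaving out arrays. The cytosolic minus mitochondrial median in DOM (-0.51) was -0.42 with quantile normalization, -0.43 with normexp and -0.54 to -0.42 on leaving out arrays, and in DINCH (-0.31) it was -0.35 to -0.27. Dropping the filter brings more probes into the adjustment; the cause of the other shifts was not tested. The replicate block gave 13 and 2 calls in DOM, 5 and 1 in DINCH, 7 and 1 between DOM and DOS, and 1 and 0 in MEHP, with Lars1 lost and Gars1 gained between DOM and DOS and no other call changed. For BDB the fit of all 6 groups called 120 named genes and slide as a block 100, where the main test called 0, and no synthetase among them. Dim probes such as those of Mars2 and Yars1 limit the size of their changes.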
